A study of Homo sapiens with 6 samples.

Results

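The 7 genes described here encode 5 steroid hormone receptors and 2 transcription factors of luminal breast epithelium. The receptors are ESR1 and ESR2 (estrogen receptors alpha and beta), PGR (progesterone receptor), NR3C1 (glucocorticoid receptor) and NR3C2 (mineralocorticoid receptor). The luminal factors are FOXA1, a forkhead protein, and GATA3, a zinc finger protein. The genes were taken from a list of names, and peaks were assigned to a gene when they overlapped its body or the 5 kb on either side, in GENCODE v44 lifted to GRCh37 (hg19). They are 7 of 20162 protein-coding genes, and they held 53 peaks, which merged into 30 of the 72537 regions of the genome.

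DNA for 6mA-IP-seq came from MDA-MB-453, an established line of human breast cancer cells that is generally described as negative for estrogen and progesterone receptor protein. N6-methyladenine (6mA) is adenine with a methyl group on its amino nitrogen, and the method enriches sheared, denatured genomic DNA with an antibody against it. The control group received a scrambled siRNA and the si-N6AMT1 group an siRNA against N6AMT1, which the study examined as a 6mA methyltransferase, both at 10 nM for 48 h in the same line and medium. Each group had 2 immunoprecipitated libraries and 1 input library, and the peak lists of the 4 immunoprecipitated libraries were analysed. All libraries come from 1 cell line under transient transfection, and peak lists carry no expression, so neither the knockdown of N6AMT1 nor the transcript levels of the 7 genes were analysed here.

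Steroid receptors are ligand-activated transcription factors. Without hormone, several of them are held by chaperones. With hormone, they bind DNA as dimers at short palindromic response elements and recruit coactivators or corepressors. FOXA1 and GATA3 are called pioneer factors because they can bind their motifs in closed chromatin, and in luminal breast cells they mark and open many of the sites where the estrogen receptor binds.

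The sequences at 2 of the 4 regions called in every library are shown first. Each is the 200 bases centred on 1 summit, the position of highest fragment pileup in a peak, read from the plus strand of GRCh37. The summit is that of si-N6AMT1 replicate 2 at ESR2 and of control replicate 1 at NR3C1, the libraries with the highest fold enrichment there (defined below). At ESR2 the summits of control replicate 2 (64780369) and si-N6AMT1 replicate 1 (64780281) lay outside the window. At NR3C1 all summits lay inside it. Capitals mark runs of at least 20 purines on either strand (a pyrimidine run on the plus strand is a purine run on the other) and matches of the GATA motif AGATAA on either strand.
ESR2, upstream of the canonical start, chr14:64780606-64780805: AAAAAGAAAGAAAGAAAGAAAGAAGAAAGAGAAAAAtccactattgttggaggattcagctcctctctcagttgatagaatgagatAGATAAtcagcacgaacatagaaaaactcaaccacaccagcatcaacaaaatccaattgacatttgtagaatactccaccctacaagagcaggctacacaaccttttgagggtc
NR3C1, upstream flank, chr5:142820197-142820396: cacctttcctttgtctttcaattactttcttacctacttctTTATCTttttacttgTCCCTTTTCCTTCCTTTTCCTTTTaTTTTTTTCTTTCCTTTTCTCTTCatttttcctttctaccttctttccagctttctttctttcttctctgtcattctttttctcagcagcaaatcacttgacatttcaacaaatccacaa
Both windows held a purine run and a match of AGATAA, on the plus strand at ESR2 and on the minus strand at NR3C1. Read from the plus strand, 82.0% of the bases were pyrimidines at NR3C1 and 39.5% at ESR2. The other motifs searched had no match in either. At the 2 regions of PGR called in every library, AGATAA had no match in the 300 bases centred on the summit. Over all regions, 21.8% of such windows held it.

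Peak lists held 30451 and 33410 peaks in control replicates 1 and 2 and 38847 and 40844 in si-N6AMT1 replicates 1 and 2. Depth was estimated as the smallest local background among the peaks of a list divided by its smallest peak width, not from read totals. Relative to control replicate 1, it was 1.32, 1.38 and 1.5 in the other libraries. By this estimate the si-N6AMT1 libraries were the deeper ones, replicate 1 only slightly deeper than control replicate 2. Their lists held more peaks. Fold enrichment is the fragment pileup at the summit over the local background, with 1 added to each. The median peak at the 7 genes rested on 17, 18, 17 and 16 fragments in the 4 libraries, so calls near the threshold are open to counting error. The replicates are called biological without separate cultures being named, so p-values measure the spread between these libraries, which may be technical.

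All 5 receptor genes held at least 1 region, and neither luminal factor held any. Among protein-coding genes, 54.2% held a region in at least 1 library, 37.5% a region called in at least 2 libraries and 18.7% a region called in all 4. ESR2, PGR and NR3C1, 3 of the 7 genes, held a region called in all 4 libraries. Genes with long windows held a region more often: 92.8% of the 3660 protein-coding genes with windows at least as long as that of PGR held a region, against 32.6% of the 10600 genes with windows no longer than that of GATA3. The receptors fall in the first class and FOXA1 and GATA3 in the second.

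ESR1 (chr6:151977826-152450754, plus strand, 8 exons in the canonical transcript) held 3 and 1 peaks in control replicates 1 and 2 and 2 and 3 in si-N6AMT1. ESR2 (chr14:64550950-64804830, minus strand, 9 exons) held 4 and 2 in control and 3 and 5 under si-N6AMT1. The groups overlapped at both estrogen receptor genes. PGR (chr11:100900355-101000544, minus strand, 8 exons) held 2 and 2 peaks in control and 4 and 6 under si-N6AMT1. It was the only one of the 7 genes at which both si-N6AMT1 libraries held more peaks than both control libraries, as did 13.0% of the 10919 protein-coding genes with a region. The reverse held for 3.02% of those genes and for none of the 7. Depth was higher in both si-N6AMT1 libraries as well, and with every list held to the same number of peaks PGR had 2 and 2 against 4 and 4. NR3C1 (chr5:142657496-142815077, minus strand, 9 exons) held 5 and 3 peaks in control and 4 and 1 under si-N6AMT1, so its groups overlapped, and the peak of si-N6AMT1 replicate 2 in its upstream region lay just past the 5-kb limit and is not in that count. NR3C2 (chr4:148999913-149365850, minus strand, 9 exons) held 0 and 1 in control and 2 and 0 under si-N6AMT1, again with overlap.

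**Figure D1:**
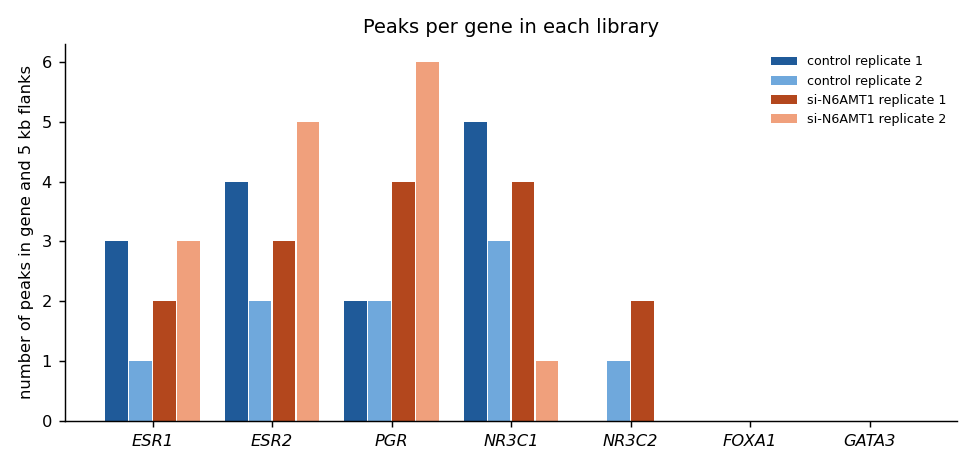
Number of peaks at each of the 7 genes in each of the 4 libraries (bars start at 0, one bar per library, and the 2 bars of a group are its replicates). PGR holds 2 and 2 peaks in control and 4 and 6 under si-N6AMT1, the groups overlap at the other receptors, and FOXA1 and GATA3 hold none.

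Summed over the 7 genes, there were 14 and 9 peaks in control and 15 and 15 under si-N6AMT1. The means were 11.5 ± 3.54 in control and 15 ± 0 under si-N6AMT1 (SD, n = 2 each), and the difference of 3.5 peaks gave p = 0.333 in an exact two-sided permutation test, the smallest p that 2 against 2 libraries allow. It was 1 peak without control replicate 2, the library with the fewest, and -1 peak when every list was held to the same number of peaks (14 and 9 against 13 and 8). Peaks covered 7.35 and 3.96 kb of these windows in control and 8.07 and 7.99 kb under si-N6AMT1, a difference of 2.38 kb (exact permutation p = 0.333) that was 0.678 kb without control replicate 2 and -0.378 kb with equal numbers. Per 10000 peaks of a list, the 7 genes held 4.60 and 2.69 in control and 3.86 and 3.67 under si-N6AMT1, and the si-N6AMT1 values lay between the control values (difference of 0.12, exact permutation p = 1). The number of genes with a peak was 4 and 5 in control and 5 and 4 under si-N6AMT1.

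The 30 regions lay in introns and flanks. By the position of the highest summit, 28 were intronic, 1 lay in an upstream flank and 1 in a downstream flank. Of the summits inside the genes, 0 lay in an exon and 0 within 1000 bp of a transcription start. These labels used the GENCODE basic transcripts of the gene itself. Other transcripts and overlapping genes were not checked. The same shares over all regions were not computed, so these counts do not show that exons or starts were avoided. Of the 30, 17 (56.7%) were called in 1 library, against 49.6% of all regions, and 4 (13.3%) in all 4 libraries, against 16.7%. No region at these genes was called in both control libraries and in neither si-N6AMT1 library, a pattern of 2.62% of all regions. The opposite pattern held for 2 regions, both at PGR, and for 5.86% of all regions. The regions of 1 library were spread unevenly, with 6 from control replicate 1 and 1 from control replicate 2, against 2 from si-N6AMT1 replicate 1 and 8 from replicate 2.

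**Figure D2:**
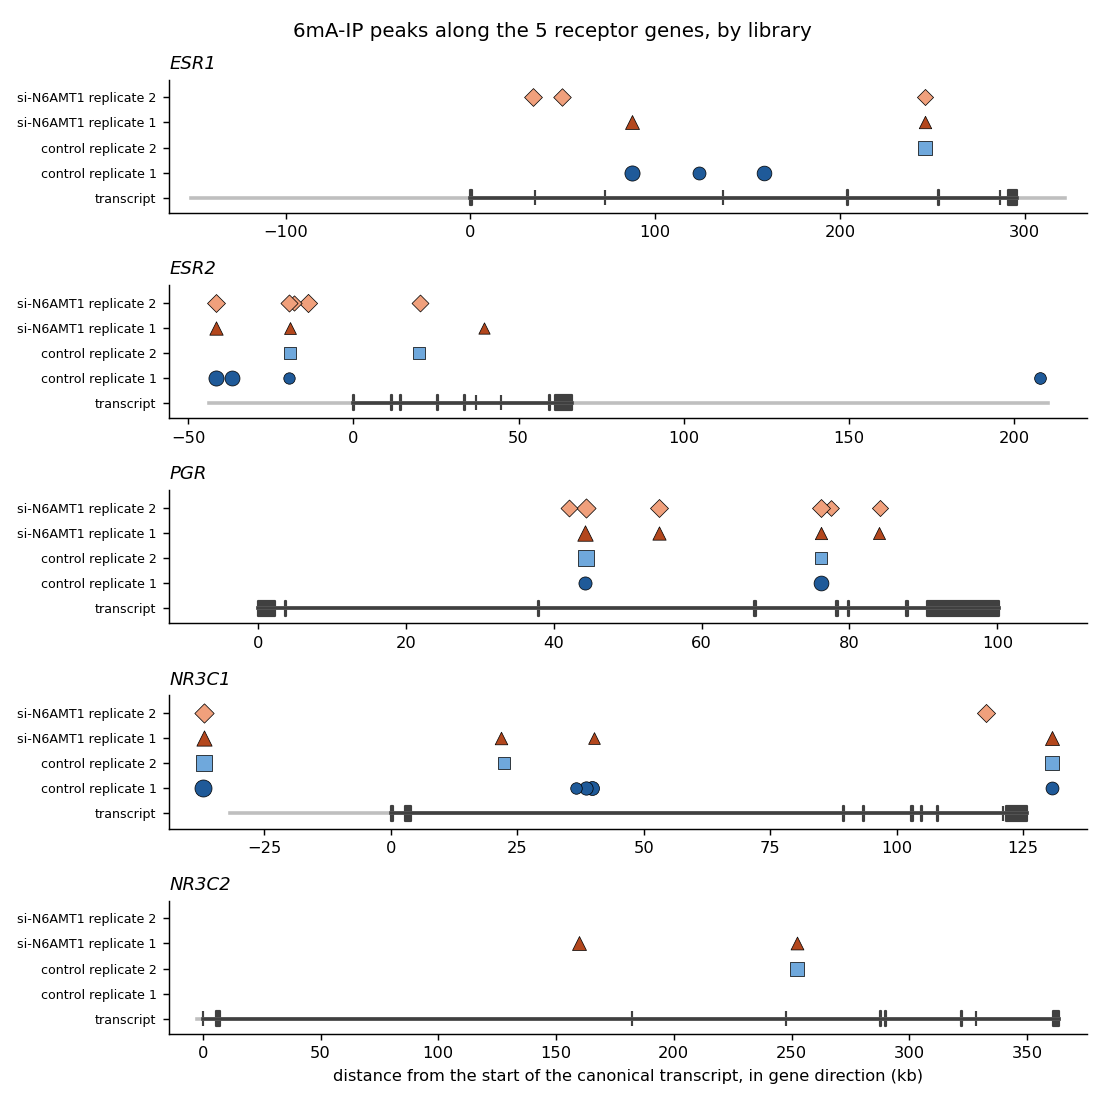
Summits of peaks along the 5 receptor genes, with the distance from the start of the canonical transcript in the direction of the gene in kb on the horizontal axis and 1 row per library. Marker size rises with fold enrichment, the grey line is the annotated gene, and dark blocks are exons of the canonical transcript. The columns of 4 markers, 2 at PGR and 1 each at ESR2 and NR3C1, are the regions called in all 4 libraries. No marker stands at the start of a canonical transcript.

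At PGR, which encodes a progesterone-activated receptor that is itself a classical estrogen target, 6 regions were called, all of them in introns 3, 4 and 6. The region in intron 3 (chr11:100955660-100956556, 44.3 kb downstream of the start) had fold enrichments of 6.60 and 10.2 in control and 9.17 and 7.07 under si-N6AMT1, on pileups of 19, 33, 30 and 26 fragments. The si-N6AMT1 values lay between those of control. The region in intron 4 (chr11:100924080-100924764, 76.1 kb downstream) had 8.42 and 5.14 in control and 5.84 and 6.20 under si-N6AMT1, and here too the si-N6AMT1 values lay inside the control range. Summits of the 4 libraries lay within 171 bp of each other in intron 3 and within 125 bp in intron 4.

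The 2 regions called in both si-N6AMT1 libraries and in neither control library also lay in PGR. In intron 6 (chr11:100916324-100917207, 84.0 kb downstream), the fold was 5.62 and 4.98, on pileups of 17 and 16 fragments. In intron 3 (chr11:100946108-100946509, 54.3 kb downstream), it was 6.79 and 6.22, on pileups of 23 and 24. At both, the fold was below the median over all peaks of those lists (6.92 and 6.64). The pileups in intron 6 were also below the list medians of 18 and 19 fragments, but those in intron 3 were above them. The absence of a call in the shallower control lists does not give a level there. With equal numbers of peaks per list, the region in intron 3 kept this pattern and the region in intron 6 did not. The remaining regions of PGR, in introns 3 and 4, were called in si-N6AMT1 replicate 2 alone, at a fold of 5.50 and 4.79.

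ESR2, the gene of the second estrogen receptor, held the most regions, 9, and only 3 of them lay inside its canonical transcript (chr14:64695035-64761089). These 3 were in introns 3 and 6 and were called in 1 library each, at a fold of 4.91 to 5.50. A run of 5 regions lay 13.6 to 41.5 kb upstream of the canonical start, in introns of longer annotated transcripts. One of them (chr14:64780080-64781332, 19.6 kb upstream) was called in all 4 libraries with a fold of 4.99 and 5.17 in control and 5.42 and 5.61 under si-N6AMT1. Both si-N6AMT1 values were above both control values, as at 16.9% of the 12132 regions called in all 4 libraries, but the summits were spread over 425 bp and the pileups were 13, 18, 13 and 14 fragments. With equal numbers of peaks per list, this region was called in the 2 control libraries alone, and 3 regions at the 7 genes were called in all 4. Another (chr14:64802303-64802773, 41.5 kb upstream) was called in 3 libraries, at 8.77 in control replicate 1 and 6.87 and 6.18 in si-N6AMT1. It lies within a long noncoding RNA gene as well, as does a region of control replicate 1 alone at 36.6 kb upstream (fold 8.56). The last region (chr14:64553358-64553874, fold 5.26, control replicate 1) lies 208 kb downstream of the canonical start within SYNE2, the gene of a nuclear envelope protein that an extended ESR2 transcript reaches.

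At ESR1, the main estrogen receptor of luminal breast cancer, 6 regions were spread over introns 1 to 5 of a gene of 473 kb, and none was called in all 4 libraries. The most shared (chr6:152374408-152374873, intron 5, 246 kb downstream of the start) had a fold of 8.04 in control replicate 2 and 5.94 and 4.98 in si-N6AMT1. A region in intron 3 (chr6:152215908-152216450) had 8.79 in control replicate 1 and 7.46 in si-N6AMT1 replicate 1. The other 4 were called in 1 library, 2 in control replicate 1 (folds 6.46 and 8.30) and 2 in si-N6AMT1 replicate 2 (6.12 and 5.93). The 2 control libraries shared no region at ESR1.

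NR3C1, the gene of the glucocorticoid receptor, which nearly all tissues express, held 7 regions. The strongest (chr5:142819966-142820537) lay in the upstream flank, 37.0 kb from the canonical start and 5219 bp from the nearest exon. Its fold was 11.1 and 10.4 in control and 8.90 and 7.15 under si-N6AMT1, with means of 10.8 ± 0.495 and 8.03 ± 1.24 (SD, n = 2 each) on pileups of 23, 25, 23 and 19 fragments. Both si-N6AMT1 values were below both control values, as at 24.3% of the regions called in all 4 libraries. The summits agreed within 58 bp, which places them just outside the 5-kb limit, and the region counts for NR3C1 because its peaks in 3 libraries reach inside.

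In intron 2 of NR3C1, the long intron downstream of the first coding exon, 3 regions lay within chr5:142742841-142746863. All 3 were called in control replicate 1, at a fold of 7.48, 6.83 and 5.11, and only the first in another library, si-N6AMT1 replicate 1 (5.27). The same intron held a region of control replicate 2 and si-N6AMT1 replicate 1 (chr5:142760654-142761743, folds 5.28 and 6.07) whose summits stood 660 bp apart. Past the 3' end of the gene, a region (chr5:142652255-142652659) had 6.39 and 7.34 in control and 7.57 in si-N6AMT1 replicate 1. In si-N6AMT1 replicate 2 the sole peak counted was in intron 7, at 6.30.

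NR3C2, which encodes the receptor for aldosterone and, like NR3C1, binds cortisol, had the fewest regions of the receptors, 2 in a window of 376 kb. One lay in intron 4 (chr4:149110684-149111511, 252 kb downstream of the start), with a fold of 6.77 in control replicate 2 and 6.36 in si-N6AMT1 replicate 1, where a second gene without a symbol is annotated as well. The other (chr4:149203810-149204268, intron 2) was called in si-N6AMT1 replicate 1 alone, at 7.46. Control replicate 1 and si-N6AMT1 replicate 2 had no peak at this gene.

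FOXA1 (chr14:38058757-38065264, minus strand) has a body of 6.51 kb and GATA3 (chr10:8087341-8117161, plus strand) one of 29.8 kb. The peak nearest to FOXA1 lay 32.6 and 27.8 kb downstream in control and 32.5 and 32.5 kb under si-N6AMT1, and a region called in all 4 libraries lay 32.5 kb downstream (chr14:38025613-38026283). Downstream of GATA3 the nearest peak lay 37.6 and 37.7 kb away in control and 37.8 and 37.7 kb under si-N6AMT1, again a region called in all 4 (chr10:8154778-8155346). These distances lie beyond windows of 20 kb either side, at which both genes still held no peak. The lists give no level between peaks, so enrichment under the calling threshold at FOXA1 and GATA3 was not detectable.

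The 4 shared regions were compared between groups on the log2 fold enrichment with limma, fitted over all 12132 regions called in all 4 libraries and adjusted by the Benjamini-Hochberg method. The difference, si-N6AMT1 minus control, was 0.02 in intron 3 of PGR (adjusted p = 0.99), -0.09 in intron 4 of PGR (adjusted p = 0.94), 0.16 upstream of ESR2 (adjusted p = 0.864) and -0.39 upstream of NR3C1 (adjusted p = 0.563), each with a standard error of 0.253. This standard error is equal at the 4 regions because limma shared the spread over all fitted regions. It is not the spread of each region alone. None of the 4 passed the threshold of 0.05, which 0.437% of the regions did. These p-values do not show that the levels were equal. The limma result at PGR changed direction without control replicate 1 in both introns, to -0.33 in intron 3 and 0.23 in intron 4. In intron 3 it was -0.15 without si-N6AMT1 replicate 1, and the difference at ESR2 was -0.34 on the pileup in place of the fold.

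**Figure D3:**
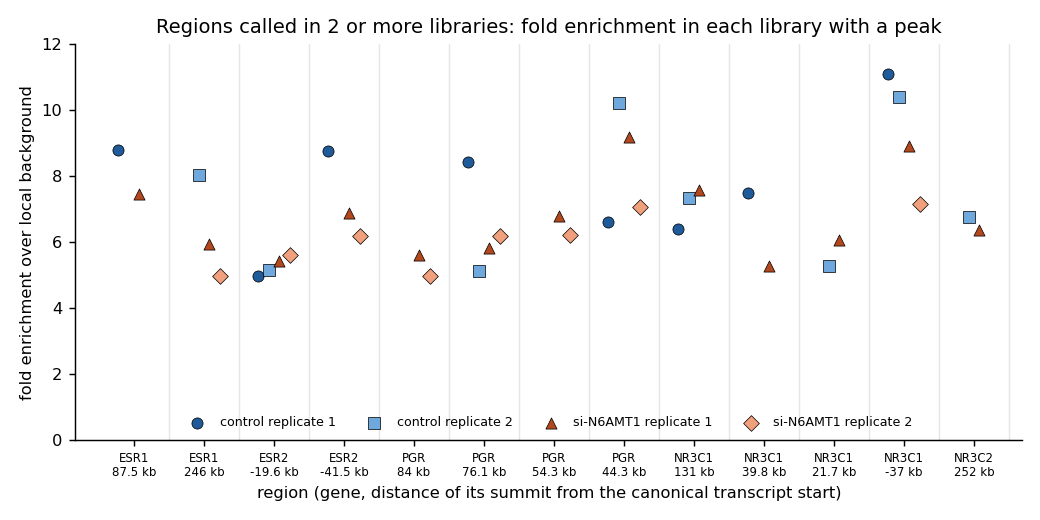
Fold enrichment (vertical axis, linear, from 0) at the 13 regions called in 2 or more libraries, with 1 point for each library that has a peak there and no point where none was called. The NR3C1 points of si-N6AMT1 37.0 kb upstream of the start (8.90 and 7.15) lie below those of control (11.1 and 10.4), the ESR2 points 19.6 kb upstream lie within 4.99 to 5.61, and the groups overlap at both PGR regions with 4 points.

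Over all peaks at the 7 genes, the median fold was 7.15 and 6.77 in control and 6.36 and 5.93 under si-N6AMT1, against 7.38, 6.92, 6.92 and 6.64 over all peaks of the same lists. The median at these genes was lower than that of its list in every library. Single peaks ranged from 4.99 to 11.1 in control replicate 1 and from 4.46 to 7.07 in si-N6AMT1 replicate 2.

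Because the genes differ in length, peaks were also counted per Mb of gene window. PGR had a density of 18.2 and 18.2 in control and 36.3 and 54.5 under si-N6AMT1, while chromosome 11 had 13.4 and 15.4 in control and 17.1 and 18.3 under si-N6AMT1. NR3C1 had 29.8 and 17.9 in control and 23.9 and 5.97 under si-N6AMT1, a spread that took in the values of chromosome 5 (12.8 to 17.3). ESR2 had 15.2, 7.58, 11.4 and 18.9, also on either side of chromosome 14 (12.7 to 16.5). ESR1 and NR3C2 lay below their chromosomes in every library, ESR1 at 2.07 to 6.21 against 7.75 to 10.7 on chromosome 6, and NR3C2 at 0 to 5.32 against 6.06 to 8.09 on chromosome 4. All 7 windows together had a density of 9.61 and 6.18 in control and 10.3 and 10.3 under si-N6AMT1, against 10.2, 11.1, 13.1 and 13.6 in the windows of all protein-coding genes, a ratio of 0.759 ± 0.157 (SD, n = 4 libraries).

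Among the 3660 genes with windows at least as long as that of PGR, the median was 2.17 regions per 100 kb, with quartiles of 1.05 and 3.6. PGR had 5.45, more than 90.1% of those genes, NR3C1 had 4.18 and ESR2 had 3.41. ESR1 had 1.24 and NR3C2 had 0.532, more than 27.9% and 11.1% of them. The steroid receptor genes thus stood on both sides of the median. These values count regions called in any library. At PGR the control libraries held 2 and 2 regions, and the deeper si-N6AMT1 libraries 4 and 6, so its place rests largely on the latter.

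**Figure D4:**
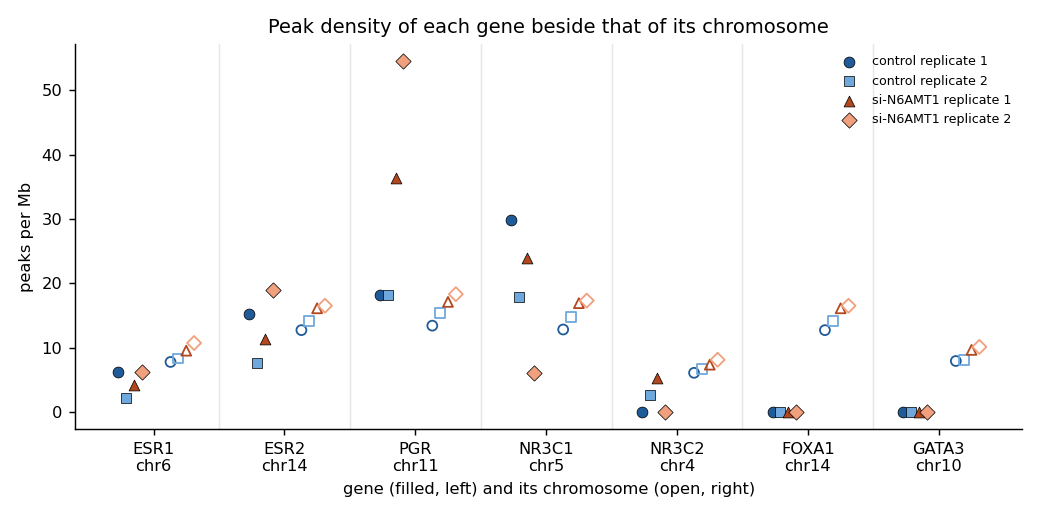
Peaks per Mb (vertical axis) of each of the 7 gene windows (filled points) and of the chromosome that carries the gene (open points), with 1 point per library. PGR reaches 36.3 and 54.5 in the si-N6AMT1 libraries, ESR1 and NR3C2 stay below their chromosomes in all 4 libraries, and FOXA1 and GATA3 are at 0.

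Sequence was examined in 1 window of 300 bases per region, on both strands. It was centred on the summit of the peak with the highest fold. Summits of other libraries can lie outside it, as at ESR2 19.6 kb upstream of the start, where they spread over 425 bp. The letters describe the windows and name no bound factor. The forkhead motif TGTTTAC, the kind of element that FOXA1 reads, was present in 3 of 30 windows (10.0%), against 3.9% of 72523 windows of all regions, and in 8 of 30 (26.7%), against 6.52%, when windows were 500 bases long. In windows of 200 bases it was present in 1 of 30 (3.33%), against 2.59%, so the share relative to all regions depended on the window length. The 3 windows of 300 bases were in intron 3 of PGR, at the shared region, and at ESR2 in intron 3 and 41.5 kb upstream of the start. The GATA motif AGATAA was present in 7 (23.3%), against 21.8%, among them the shared windows of ESR2 and NR3C1. The palindromes of the estrogen response element (GGTCA, any 3 bases, TGACC) and of the glucocorticoid response element (GAACA, any 3 bases, TGTTC) were in 0 of 30 windows, and in 0.011% and 0.0248% of all windows.

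The motif CAGGCTGG, which led in the study, was present in 3 windows (10.0%), against 16.7%, all at ESR2. At least 10 A in a row were present in 14 (46.7%), against 34.4%. A run of at least 20 purines, which a long A run can be part of, was present in 8 (26.7%), against 43.8%. The 8 included the windows of all 4 regions called in every library, with a run of 166 bases in intron 4 of PGR. The share over all regions called in every library was not computed. The gap in A runs was smaller in windows of 200 bases (33.3% against 29.9%) and of 500 bases (46.7% against 40.0%). At least 6 CA in a row were in 2 windows (6.67%), against 8.54%, and at least 6 GA in a row in 1 (3.33%), against 7.49%. The median GC content was 34.3% (28.0 to 53.7%), against 37.3% over all regions.

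**Figure D5:**
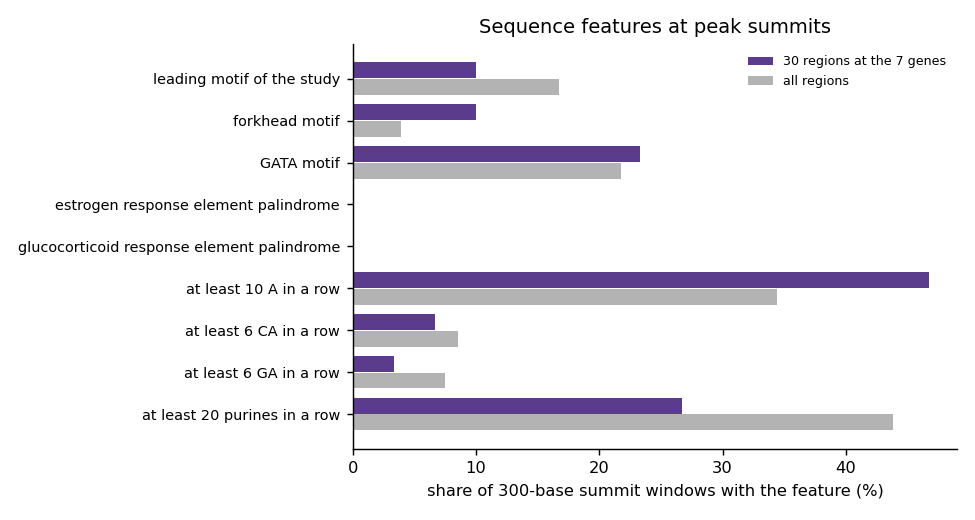
Share of 300-base windows at summits that hold each motif or run (percent, bars from 0), in the 30 regions of the 7 genes and in all regions. Runs of at least 10 A are in 46.7% against 34.4%, and runs of at least 20 purines in 26.7% against 43.8%. The gap in A runs was smaller in windows of 200 bases (33.3% against 29.9%) and of 500 bases (46.7% against 40.0%), which are not drawn.

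Genes that work with these receptors were counted in the same way, from 6 lists of 50 genes. The median protein-coding gene held 1 region in a window of 37.2 kb, 54.2% of such genes held a region and 18.7% one called in all 4 libraries, against which the counts of each list are to be read. Of genes with a region, 13.0% had more peaks in both si-N6AMT1 libraries than in both control libraries, and 3.02% the reverse. Peak numbers of single genes are to be read against those shares and the greater depth of both si-N6AMT1 libraries. Coregulators, which link the receptors to histone modification and to RNA polymerase, held 55 regions in 9 of 11 genes, with a median of 2 regions in a longer median window of 165 kb. The most were at NCOR1, a corepressor, with 16 regions (8 and 7 peaks in control and 6 and 6 under si-N6AMT1), and at NCOA3, a coactivator, with 14 (6 and 7 against 6 and 8). Of the 55, 11 were called in all 4 libraries, 2 in both control libraries alone and 3 in both si-N6AMT1 libraries alone. These were near the shares over all regions (16.7%, 2.62% and 5.86%).

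Chaperones of the unliganded receptors held 4 regions in 3 of 6 genes, none shared by all libraries, a share of genes near the 54.2% of all protein-coding genes. The most were 2 at FKBP5, an immunophilin of the receptor complex that glucocorticoids also induce. Paralogues of the members held 22 regions in 5 of 10 genes, among them 12 at ESRRG, an orphan receptor gene with a window of 645 kb, and 4 at GATA1, the erythroid GATA factor (0 and 1 peaks in control and 2 and 2 under si-N6AMT1).

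Other luminal or mammary transcription factors held 11 regions in 4 of 9 genes. Of these, 7 were at GRHL2, an epithelial factor (4 and 4 peaks in control and 5 and 5 under si-N6AMT1), and 2 at ELF5, a factor of alveolar differentiation (0 and 0 against 2 and 1). Estrogen targets held 4 regions in 4 of 8 genes, 1 each at TFF1, PDZK1, AGR3 and CA12. Glucocorticoid targets held 4 in 4 of 6 genes, 1 each at TSC22D3, PER1, ZBTB16 and KLF9. The paralogues, the other luminal factors and the estrogen targets were near that share of 54.2% as well. Neither target list held a region called in all 4 libraries, or in both libraries of 1 group and neither of the other. Over all regions these shares were 16.7%, 2.62% (control) and 5.86% (si-N6AMT1), so their absence among 4 regions per list is not informative.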

How the data were processed

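6mA-IP-seq libraries of MDA-MB-453 genomic DNA were analysed from peak lists. Per the methods and the submitters' processing notes, the authors aligned reads to hg19 with Bowtie2 2.3.5, removed duplicates with SAMtools 1.9 and called peaks per library with MACS2 at p = 1e-05. Which input served each call is not given in the sources used here, and the inputs were not analysed here. The deposited score is 10 times the −log10 p, cut to a whole number, and was not used. The deposited fold enrichment is a ratio of summit pileup to local background, with 1 added to each. The deposited −log10 p and q are those at the summit. Fold and −log10 p together gave back the pileup, whole within 0.01 for 100% of peaks, and the background gave the relative depth. Total read numbers were not used here.

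The members and lists were chosen with earlier results of these data known. Groups came from sample titles. Peaks sharing at least 1 bp were merged into regions. Genes were those of GENCODE v44 lifted to GRCh37, with the Ensembl canonical transcript for introns. Sequence came from the GRCh37 primary assembly. The summit windows of the other regions are not reported here. RefSeq promoter tables were of another build and were not used. A repeat annotation was not used here.

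Named regions were those called in all 4 libraries or in both libraries of 1 group alone, in full, and the others by position or range. In other lists, the 2 genes with the most regions were named. At estrogen and glucocorticoid targets, all genes with a region were tied and were named. Library values were compared by exact two-sided permutation over the 6 assignments (smallest p = 0.333). Log2 fold, centred on each library's median, was tested with limma 3.58.1 (R 4.3.3) over regions called in all 4 libraries, with Benjamini-Hochberg adjustment. Other steps used Python 3.11.15. The recovery of pileups, the merging into regions and the limma fit were tested on simulated data. The study's own test of differential signal needs signal tracks, so called and uncalled regions were compared instead. Results were recomputed with other gene windows, lists of equal length, a −log10 q minimum of 5, merging at 50% overlap, other sequence windows, uncentred folds, pileups, a block for the replicate number and without each library in turn.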

Additional observations from a re-analysis of the deposited data

How the results depend on the processing

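Of 127 values under alternative settings, 8 turned direction, 20 moved past the limits set for counts and values, and 99 did neither, although their size could change (3.5 peaks to 1 and 2.38 kb to 0.678 kb without control replicate 2). With equal numbers of peaks in each list, the difference in peaks at the 7 genes (si-N6AMT1 minus control) was -1 and in covered length -0.378 kb. The regions of both control libraries alone and of both si-N6AMT1 libraries alone were 1 and 1. Read from the canonical transcript with 5 kb either side, an alternative chosen after seeing the data, the difference in genes with a peak was 0.5 and the regions called in all 4 libraries were 2. Leaving out each library in turn gave a difference in genes with a peak of -0.5 to 0.5, 0 to 6 regions of control alone (6 without control replicate 2), 3 to 10 of si-N6AMT1 alone (10 without si-N6AMT1 replicate 1), and 0 to 40 limma calls, with 0 calls and 1074 unadjusted p under 0.05 without si-N6AMT1 replicate 2. With a library left out, a region of 1 group alone was called in every remaining library of that group and in none of the other. This rule is looser than with 4 libraries, so the higher region counts follow from the rule. The 6 regions were those of control replicate 1 alone. The 10 were the 8 of si-N6AMT1 replicate 2 alone and the 2 of both si-N6AMT1 libraries alone. Limma calls, 53 as reported, were 29 without centring (median shift of -0.05). They were 18 at −log10 q of at least 5 in every library and 0 on recovered pileups (647 unadjusted p under 0.05). The shared region of PGR in intron 3 turned to -0.0247 without centring, to -0.00158 on pileups and to -0.33 to 0.37 when each library was left out. That in intron 4 ranged from -0.40 to 0.23, and the one of ESR2 was -0.34 on pileups. The forkhead share was 26.7% in 500-base windows (6.52% of all regions) and 3.33% in 200-base windows (2.59%). The cause was not tested. Replicate numbers share only a number (r = 0.014 between same-numbered deviations over 12132 regions). With a replicate block, differences were 3.5 peaks, 2.38 kb and 0 genes, with exact sign-flip p = 0.5, 0.5 and 1 (smallest possible 0.5), and limma calls were 57. Peaks rested on few fragments, which limits calls near the threshold.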
